A study of Mus musculus with 48 samples.

Results

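The 53 genes described here are transcribed mainly in the G2 phase and in mitosis of dividing cells. They were selected by name, through the Ensembl identifier of each row, and make up 53 of the 36854 genes of a count table of 48 mouse sarcomas. The rule uses no expression value, but the set was chosen with earlier results of these data known. All 53 were found. A cell enters mitosis when cyclins A2, B1 and B2 activate the kinase CDK1, which the CDC25 phosphatases free from inhibition. PLK1 and the Aurora kinases then build the spindle, the kinetochore proteins attach chromosomes to it, the BUB and MAD proteins delay anaphase until all are attached, and CDC20 with the E2 enzyme UBE2C starts the destruction of securin and cyclin B that ends mitosis. The mRNAs of this machinery are low in resting cells and high in cycling ones, and in irradiated cells with working p53 they are lowered through the CDK inhibitor p21 and the DREAM repressor complex.

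All tumours came from mice of the 129/SvJae background and were p53/MCA sarcomas, grown in the gastrocnemius, the large calf muscle. The 32 primary tumours were made in p53FL/FL mice of 6 to 10 weeks by local injection of Adeno-Cre, which deletes the floxed p53 alleles in the cells it infects, followed by 300 µg of the carcinogen MCA. The 16 allografts grew from 50000 injected cells of a single cell line, 402230, in syngeneic mice and so stand for 1 line. At a volume of about 150 mm3 each mouse received 200 µg of muDX400, an antibody against PD-1, an inhibitory receptor of T cells, or an isotype control, directly followed by 0 or 20 Gy to the hind limb, and the tumour was taken 3 days later. This gave 8 groups, with 8 primary tumours or 4 allografts in each. The unirradiated groups shared the tumour model, an antibody injection and the day of harvest with the irradiated ones. The labels name single tumours and do not say whether any mouse or day was shared, so p-values measure the spread between these tumours.

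Library totals ran from 31.8 to 54.0 M counts with a median of 41.2 M, and the 53 genes together took 0.0800 to 0.577% of a tumour's counts. All 53 were above 1 CPM (library-scaled reads, with edgeR's TMM factors) in every tumour, all passed the filter on low counts in every fit, and the lowest single value was 1.92 CPM, for Cdc25c. Mesenchymal markers such as Vim (1482 to 5938 CPM) and Col1a1 (597 to 19940 CPM) were present in all 48 tumours. Markers of skeletal muscle varied most, from 18.3 to 97840 CPM in sum over 16 genes, and leukocyte markers summed to 569 to 2723 CPM. Xist, a transcript of female cells, was above 10 CPM in 1 of 4 allografts of each 0 Gy group and in 3 of 4 of each 20 Gy group. Among primary tumours with isotype it was above 10 CPM in 5 at 0 Gy and 2 at 20 Gy, in groups of equal size. With anti-PD-1 it was so in 3 primary tumours at each dose. Xist was a covariate in allograft fits only, so its part in the primary comparisons was not tested. The first digit of the animal identifier also differed between allograft groups, being 4 in 0 of 4 at 0 Gy and 3 of 4 at 20 Gy with isotype. Cdkn1a, which encodes p21 and is not one of the 53, rose after 20 Gy in all 4 settings, by a log2 fold change of 2.22 and 2.46 in primary tumours with isotype and anti-PD-1 (SE 0.25 each, adjusted p 1.95e-06 and 3.76e-07) and by 1.79 and 1.75 in allografts (SE 0.26 each, adjusted p 0.00174 and 0.00483).

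Many mitotic promoters carry a cell cycle genes homology region (CHR), the element through which the DREAM and MMB complexes bind, and CCAAT boxes, which NF-Y binds. Promoter windows of 300 bases, from 250 before to 50 after the annotated start, were available in RefSeq (GRCm38.p6) for 44 of the 53 genes, in 48 windows. Windows were searched on both strands for the CHR letters TTTGAA. Their reverse complement is TTCAAA. They were also searched for the box CCAAT, and overlapping matches were counted. A CHR match was in 34 of the 48 windows (70.8%, 31 genes), against 17.9% of the 32851 windows of all 27025 genes. Within 50 bases of the start it was in 64.6% of the member windows and 4.94% of all windows. A CCAAT match was in 72.9% against 37.4%, and both letters together were in 58.3% against 6.95%. These are letter matches and not measured binding, and no other letters of the CHR were searched. The 13 genes without a CHR match in their windows were Birc5, Bub1, Ccnb1, Cdc25b, Cenpe, Gtse1, Kif18a, Mad2l1, Ncaph, Nek2, Nuf2, Plk4 and Pttg1, and no window was given for Aurkb, Ccna2, Cdc25c, Dlgap5, Foxm1, Incenp, Kif20a, Smc4 and Tpx2.

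The 7 windows printed here set the letters beside the results, 5′ to 3′ on the strand of the gene, with CHR and CCAAT matches in capitals. Ccnb2 and Nuf2 were the genes called lower after 20 Gy in all 4 settings, Cdk1 and Ccnb1 belong to the core mitotic kinase but were called in none, Plk1 and Top2a are widely used mitotic markers, and Bub3 was among the genes that changed least. Ccnb2, which encodes cyclin B2, lies at chr9:70421505-70421804 (minus strand), Nuf2 at chr1:169531415-169531714 (minus), Cdk1 at chr10:69352863-69353162 (minus), Ccnb1 at chr13:100786437-100786736 (minus), Plk1 at chr7:122159185-122159484 (plus), Top2a at chr11:99024140-99024439 (minus) and Bub3 at chr7:131560120-131560419 (plus).
Ccnb2: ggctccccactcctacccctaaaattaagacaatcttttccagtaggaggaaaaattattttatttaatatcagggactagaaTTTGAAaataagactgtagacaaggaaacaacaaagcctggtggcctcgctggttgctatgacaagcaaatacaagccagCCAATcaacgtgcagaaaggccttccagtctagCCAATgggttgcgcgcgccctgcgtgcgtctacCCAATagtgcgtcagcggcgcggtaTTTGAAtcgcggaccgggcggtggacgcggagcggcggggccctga
Nuf2: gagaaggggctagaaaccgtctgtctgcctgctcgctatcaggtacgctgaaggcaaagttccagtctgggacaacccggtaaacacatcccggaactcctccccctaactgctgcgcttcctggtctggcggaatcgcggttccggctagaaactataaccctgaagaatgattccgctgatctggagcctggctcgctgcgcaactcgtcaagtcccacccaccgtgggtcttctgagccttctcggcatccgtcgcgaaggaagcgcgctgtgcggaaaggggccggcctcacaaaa
Cdk1: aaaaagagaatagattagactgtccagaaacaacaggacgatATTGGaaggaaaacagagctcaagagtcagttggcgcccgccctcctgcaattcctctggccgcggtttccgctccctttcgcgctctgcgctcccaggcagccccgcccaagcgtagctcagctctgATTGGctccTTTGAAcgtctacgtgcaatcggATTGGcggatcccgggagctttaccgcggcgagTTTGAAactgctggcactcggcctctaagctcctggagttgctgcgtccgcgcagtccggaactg
Ccnb1: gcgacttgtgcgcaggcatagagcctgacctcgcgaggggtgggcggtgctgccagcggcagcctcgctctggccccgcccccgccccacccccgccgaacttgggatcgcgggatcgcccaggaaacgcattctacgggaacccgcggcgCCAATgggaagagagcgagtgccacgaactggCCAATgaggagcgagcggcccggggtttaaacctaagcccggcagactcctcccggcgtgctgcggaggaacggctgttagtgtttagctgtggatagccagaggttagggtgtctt
Plk1: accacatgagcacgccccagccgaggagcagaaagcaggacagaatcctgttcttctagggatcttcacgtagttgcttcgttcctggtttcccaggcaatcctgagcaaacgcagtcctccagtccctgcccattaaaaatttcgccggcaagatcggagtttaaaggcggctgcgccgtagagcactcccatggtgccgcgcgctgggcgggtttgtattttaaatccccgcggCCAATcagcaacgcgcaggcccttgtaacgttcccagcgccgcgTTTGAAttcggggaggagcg
Top2a: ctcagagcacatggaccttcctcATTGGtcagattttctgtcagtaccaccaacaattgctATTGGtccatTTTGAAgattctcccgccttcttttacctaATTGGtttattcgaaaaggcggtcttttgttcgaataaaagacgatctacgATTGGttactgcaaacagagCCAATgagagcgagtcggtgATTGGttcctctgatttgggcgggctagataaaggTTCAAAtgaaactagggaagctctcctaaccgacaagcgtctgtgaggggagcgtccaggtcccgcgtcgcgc
Bub3: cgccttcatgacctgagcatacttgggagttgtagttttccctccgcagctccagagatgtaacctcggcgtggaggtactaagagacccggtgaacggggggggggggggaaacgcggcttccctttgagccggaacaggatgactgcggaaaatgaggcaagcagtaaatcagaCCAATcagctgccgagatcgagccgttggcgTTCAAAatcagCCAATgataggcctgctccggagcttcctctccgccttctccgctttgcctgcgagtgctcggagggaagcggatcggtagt
Ccnb2 holds 2 CHR and 3 CCAAT matches, and Nuf2, which was lowered in the same 4 settings, holds 0 of either. Cdk1 holds 2 and 3, Plk1 1 and 1, Top2a 2 and 6, Bub3 1 and 2, and Ccnb1 0 CHR and 2 CCAAT matches. In isotype-treated primary tumours the 31 genes with a CHR match had a median log2 fold change of −0.84 after 20 Gy (21 called lower), the 13 without one −0.78 (8 called) and the 9 without a window −0.71 (6 called).

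**Figure D1:**
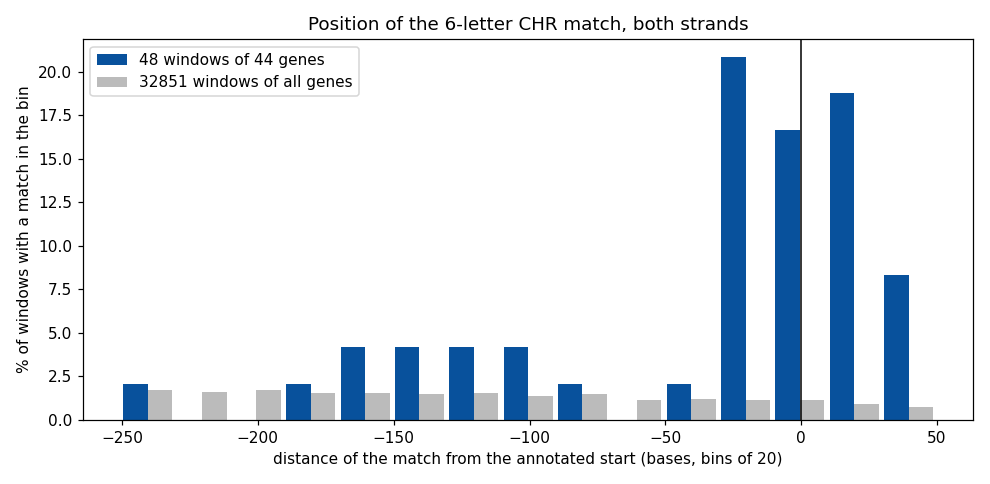
Share of promoter windows (vertical axis, percent) that hold TTTGAA or TTCAAA, by distance from the annotated start in bins of 20 bases (horizontal axis), for the 48 member windows and for all 32851 windows. Matches of the members are most frequent from 30 bases before to 30 after the start, where each bin holds 16.7 to 20.8% of their windows.

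Among the 53 genes, levels per kilobase of exon in untreated primary tumours (0 Gy with isotype) were highest for Cdc20, the activator of the anaphase-promoting complex, at a mean of 57.6 CPM per kb. Ube2c followed at 43.8, Ccnb2 at 43.7, Smc4, a core subunit of condensin, at 34.7 and Ccna2 at 31.0 CPM per kb. The lowest levels per kb were those of Kif18a, a kinesin that aligns chromosomes (1.51), Kif15 (2.64), Cenpf (2.89), Cdc25c (3.05) and Iqgap3 (3.29). Cdc20 was also first in untreated allografts, at 57.8 CPM per kb, followed by Ccnb2 at 39.3 and Ube2c at 31.95. The values of Ube2c and Ccnb2 lie within 1 CPM per kb of each other in the primary tumours, where single tumours spanned 63.5 to 159.7 CPM for Ube2c and 39.00 to 98.5 CPM for Ccnb2, so their order is not separated by that spread. Reads may be shared for the 29 of 53 genes that overlap another annotated gene, such as Ube2c with Tnnc2, a muscle gene. Tnnc2 was highest among primary tumours in 3 irradiated ones (3272, 1880 and 907 CPM), where Ube2c was 41.6, 68.3 and 51.2 CPM. Ube2c spanned 37.7 to 107.2 CPM in the irradiated primary tumours with isotype and 41.6 to 97.99 CPM in those with anti-PD-1. Sharing of reads between these genes was not tested.

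**Figure D2:**
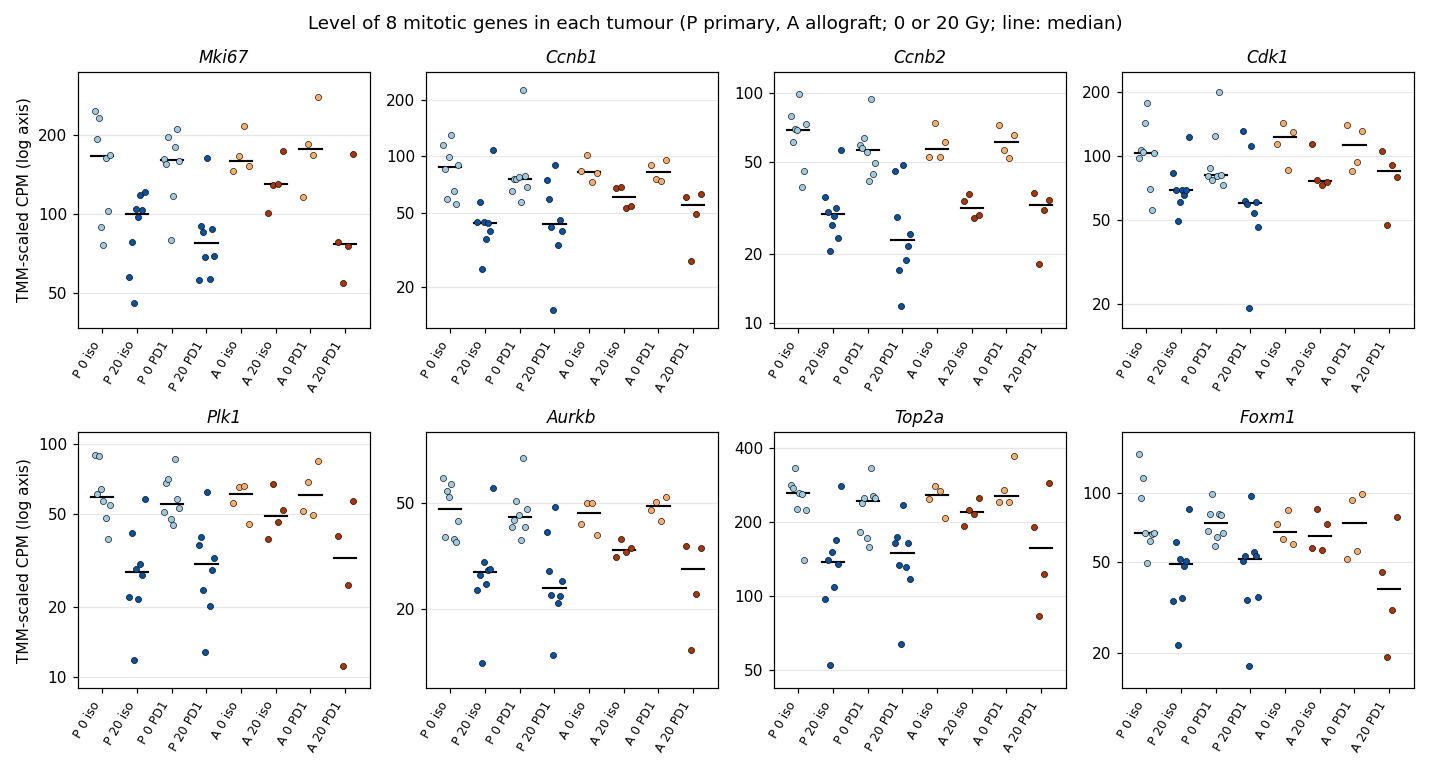
TMM-scaled CPM (vertical log axes) of Mki67, Ccnb1, Ccnb2, Cdk1, Plk1, Aurkb, Top2a and Foxm1 in each tumour, by group (P primary, A allograft, dose in Gy, antibody), with a line at the group median. In each panel the median of the irradiated primary groups lies below that of the matched 0 Gy groups, with overlapping tumours.

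The first comparison asked what 20 Gy did in primary tumours given isotype, 8 tumours against 8. Of the 53 genes, 35 were called lower and 0 higher at an adjusted p below 0.05 (edgeR), where 6.64% of all 17770 genes tested were called lower and 7.85% higher. The log2 fold changes of the 53 had a median of −0.80, from −1.19 (Cdc25c) to −0.26 (Espl1), against a median of −0.02 over all genes, and all 53 were below 0. With bulk RNA, fewer dividing cells and less mitotic RNA per cell cannot be told apart. All 53 were also below 0 under each of the 9 other settings, which called 29 to 43. None of these settings had Xist as a covariate. Without replicate 3 or 5 of the irradiated group, 21 genes were called in each case.

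In primary tumours with anti-PD-1, 20 Gy lowered 21 of the 53 genes and raised 0 (background 1.86% lower and 6.06% higher), with a median of −0.75, from −1.14 (Iqgap3) to −0.31 (Bub3), and all 53 below 0, against a median of 0.02 over all genes. The count turned on single tumours. It was 9 when control replicate 6 was omitted. Among the irradiated tumours, omitting replicate 4 gave 9, replicate 5 gave 42, replicate 6 gave 9, replicate 3 gave 11 and replicate 7 gave 12. For 0 members were the groups free of overlap (background 0.124%). The number called was 6, with a median of −0.57, without the irradiated tumours rich in muscle RNA (replicates 4 and 8), and 35 with the muscle markers as a covariate. In isotype primary tumours the same omission (replicate 4 at 20 Gy) left 39 called and a median of −0.76. The 21 and 35 genes, from tumours that share no controls, had 17 in common, 48.6% of the longer and 81.0% of the shorter list. Lists of 21 and 35 out of the same 53 genes share many genes whichever are called, and the overlap was not tested.

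In allografts with isotype, 4 irradiated tumours were set against 4 controls. Cenpa, Ccnb2 and Nuf2 were called lower, 3 of 53 where 0.744% of 17746 genes were, and 0 were called higher (4.4%). The median log2 fold change was −0.30, from −1.16 (Cenpa) to 0.05 (Gtse1), and 52 of 53 values were below 0. For 14 of the 53 genes all 4 irradiated allografts lay below all 4 unirradiated ones (background 4.67%). Leaving out 0 Gy replicates 1, 2, 3 or 4 gave 1, 0, 6 or 1 called genes, and leaving out 20 Gy replicates 2, 3 or 4 gave 1, 1 or 0. With the identifier digit as a covariate 0 genes were called and with Xist as one 1, while the medians were −0.35 and −0.34. DESeq2 called 9, and a fit of all 48 tumours called 0.

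With anti-PD-1, allografts at 20 Gy had 9 of the 53 genes called lower and 0 higher (background 0.828% lower and 3.13% higher), namely Hmmr, Ccnb2, Nuf2, Racgap1, Bub1, Cdc25c, Smc4, Ccna2 and Aurkb. The median was −0.73, from −1.24 (Bub1b) to −0.13 (Bub3), and all 53 were below 0. For 22 genes the irradiated and unirradiated tumours did not overlap (background 3.39%). Replicate 4 of the 20 Gy group was the highest of its group for most genes, and without it 40 were called. Omitting control replicate 2 or 4 gave 3 or 2, and omitting irradiated replicate 3 gave 3. DESeq2 called 29, and fits of all 48 tumours or of the 2 groups alone called 0, with medians of −0.75 and −0.74. The 2 allograft lists shared Ccnb2 and Nuf2, 66.7% of the shorter and 22.2% of the longer. In the 4 settings together, 13 of the 53 genes were called in none, 20 in 1, 14 in 2, 4 in 3 and 2 in all 4.

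**Figure D3:**
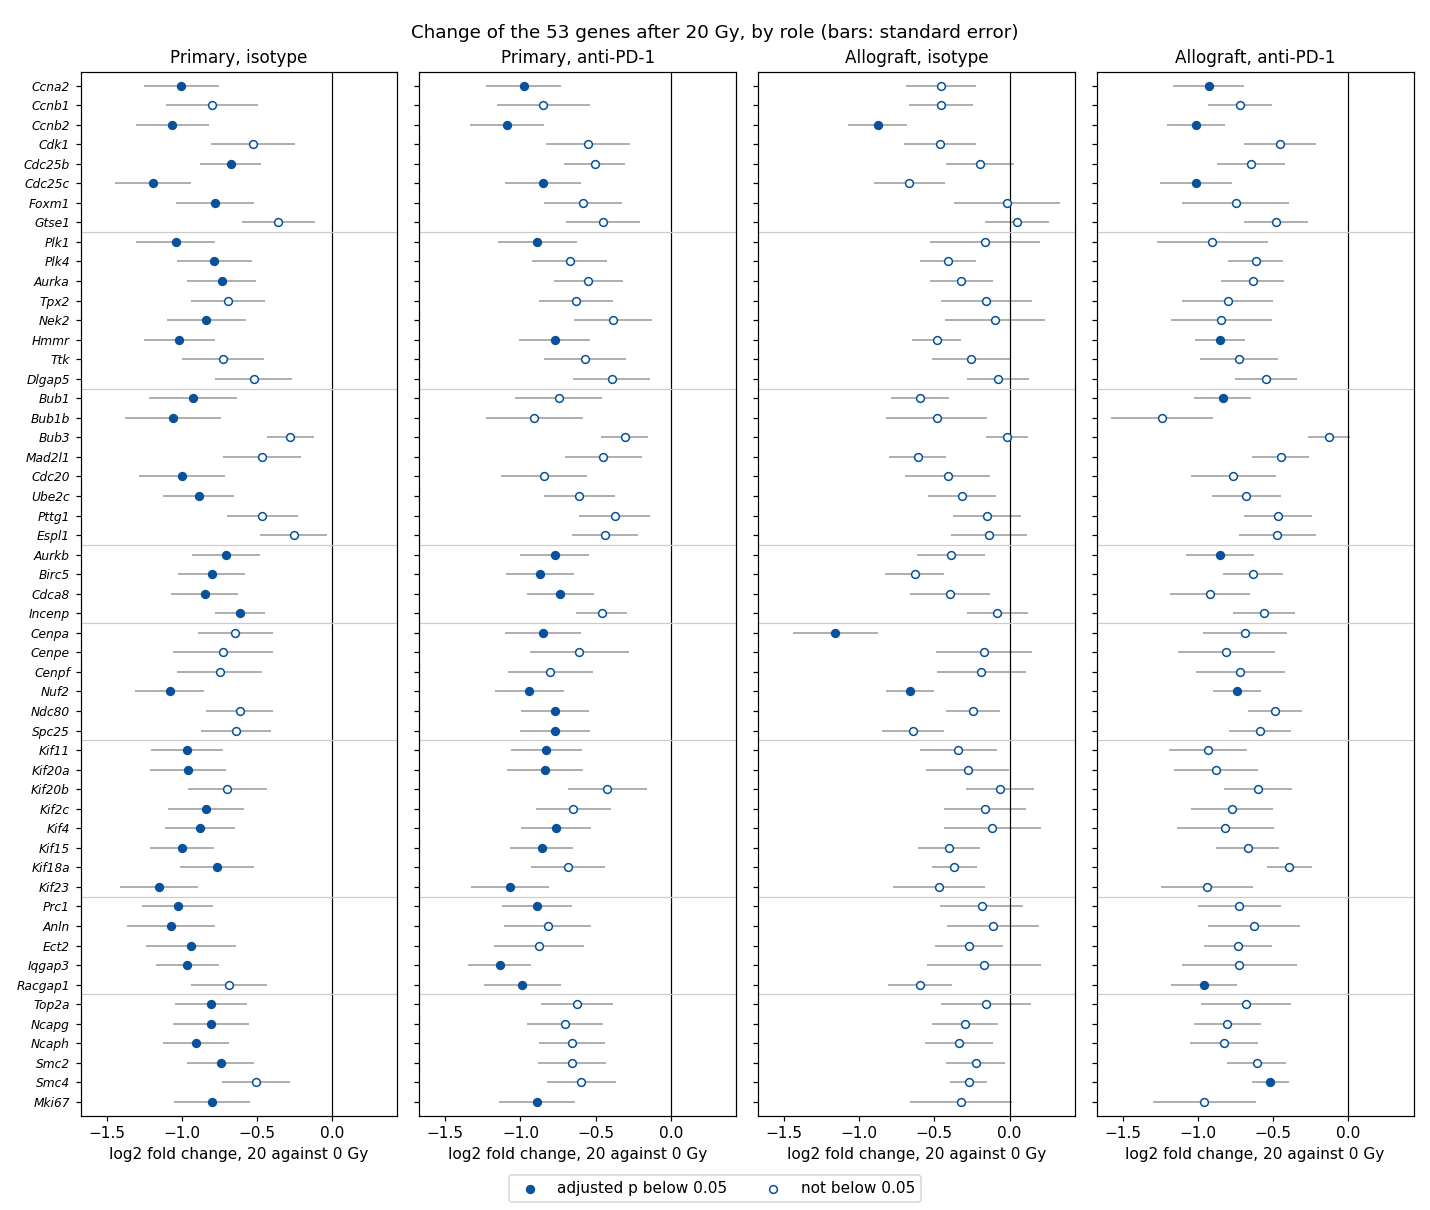
Log2 fold change at 20 Gy against 0 Gy (horizontal axis) of the 53 genes, by role and in 4 settings, with bars of 1 standard error and filled points for an adjusted p below 0.05. In the primary tumours every point lies left of 0 with 35 and 21 filled, and in the allografts 3 and 9 are filled.

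Of the 8 genes of entry into mitosis, 5 and 3 were called lower in primary tumours with isotype and anti-PD-1, and 1 and 3 in allografts. Ccnb2 ran from 39.0 through a median of 69.2 to 98.5 CPM at 0 Gy and from 20.7 through 29.7 to 56.7 CPM at 20 Gy in isotype primary tumours. All 8 irradiated tumours lay below the median of the controls and 7 below the lowest of them (log2 fold change −1.06, SE 0.24, adjusted p 0.00357). With anti-PD-1 the lowest, median and highest values were 41.3, 56.4 and 93.6 CPM at 0 Gy and 11.9, 22.99 and 48.8 CPM at 20 Gy, again with 8 of 8 below the control median (log2 fold change −1.09, adjusted p 0.00629). The allografts with isotype held 52.4, 74.2, 52.8 and 61.1 CPM at 0 Gy and 33.9, 36.5, 28.7 and 29.6 CPM at 20 Gy. With anti-PD-1 they held 72.2, 56.7, 52.4 and 65.3 CPM at 0 Gy and 36.6, 18.1, 31.1 and 34.3 CPM at 20 Gy. In both cases all 4 irradiated tumours were below all 4 controls, with log2 fold changes of −0.88 (SE 0.19, adjusted p 0.0174) and −1.01 (SE 0.19, adjusted p 0.0121).

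Cdc25c encodes the phosphatase that switches on CDK1. In isotype primary tumours its lowest, median and highest values were 9.93, 14.8 and 22.3 CPM at 0 Gy and 3.48, 6.47 and 8.51 CPM at 20 Gy. It was the only one of the 53 genes whose groups did not overlap there (background 0.445%), and its log2 fold change of −1.19 (SE 0.25, adjusted p 0.00179) was the largest. With anti-PD-1 Cdc25c was 9.96, 11.02 and 21.1 CPM at 0 Gy and 1.92, 6.31 and 12.8 CPM at 20 Gy, where 1 irradiated tumour reached the controls (−0.85, adjusted p 0.0336). Its allograft values with anti-PD-1 were 9.74, 10.5, 9.10 and 12.9 CPM at 0 Gy and 6.89, 3.12, 4.16 and 6.42 CPM at 20 Gy, which did not overlap (−1.01, adjusted p 0.029). With isotype they were 11.2, 12.4, 9.93 and 9.39 CPM at 0 Gy and 6.62, 8.08, 5.32 and 6.56 CPM at 20 Gy, also without overlap, but the difference missed the threshold (−0.67, adjusted p 0.13).

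Ccna2, the cyclin that acts from S phase to early mitosis, was 100.4, 117.6 and 178.2 CPM at 0 Gy and 30.3, 54.8 and 129.4 CPM at 20 Gy in isotype primary tumours, where 7 of 8 irradiated tumours lay below every control and 1 lay among them (log2 fold change −1.003, SE 0.25, adjusted p 0.00699). It also fell with anti-PD-1 in primary tumours (−0.98, adjusted p 0.0152) and allografts (−0.93, adjusted p 0.0402). Ccnb1, whose product is the main CDK1 partner in mitosis, did not pass in any setting. Its values in isotype primary tumours were 55.9, 87.99 and 130.5 CPM at 0 Gy and 25.2, 44.3 and 108.9 CPM at 20 Gy, and 7 of 8 irradiated tumours were below the control median (−0.80, adjusted p 0.0794). With anti-PD-1 they were 57.1, 75.5 and 226.6 CPM at 0 Gy and 15.1, 43.8 and 90.1 CPM at 20 Gy, with 5 of 8 irradiated tumours below every control (−0.85, adjusted p 0.0869). In allografts Ccnb1 was 83.9, 101.8, 73.4 and 82.1 CPM at 0 Gy and 67.5, 69.1, 53.3 and 54.6 CPM at 20 Gy with isotype. It was 90.3, 75.6, 74.3 and 96.2 CPM at 0 Gy and 60.5, 27.5, 49.5 and 63.3 CPM at 20 Gy with anti-PD-1. Neither pair of groups overlapped, yet the log2 fold changes of −0.46 and −0.72 had adjusted p of 0.269 and 0.0738.

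Cdk1, the kinase itself, did not pass in any setting. Its lowest, median and highest values were 55.4, 103.6 and 178.5 CPM at 0 Gy and 49.3, 68.9 and 123.4 CPM at 20 Gy in isotype primary tumours and 73.2, 80.96 and 199.2 CPM at 0 Gy and 19.3, 60.1 and 131.6 CPM at 20 Gy with anti-PD-1. With isotype 1 of 8 irradiated tumours lay below every control and with anti-PD-1 6 of 8 did, and the log2 fold changes were −0.53 and −0.55 (SE 0.28 each, adjusted p 0.21 and 0.229). Allografts with isotype held 114.4, 143.3, 86.2 and 129.9 CPM at 0 Gy and 114.1, 77.2, 72.7 and 75.2 CPM at 20 Gy. With anti-PD-1 the allograft values of Cdk1 were 139.6, 85.3, 93.3 and 131.2 CPM at 0 Gy and 105.04, 47.3, 90.96 and 79.6 CPM at 20 Gy. Both pairs overlapped, with log2 fold changes of −0.46 and −0.45 (adjusted p 0.33 and 0.314).

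Foxm1, the transcription factor of many G2 genes, fell in isotype primary tumours, where it was 49.6, 66.5 and 146.4 CPM at 0 Gy and 21.9, 49.03 and 84.6 CPM at 20 Gy (log2 fold change −0.78, SE 0.26, adjusted p 0.0414), with 4 of 8 irradiated tumours below the lowest control. With anti-PD-1 the values were 58.5, 73.9 and 98.7 CPM at 0 Gy and 17.6, 51.7 and 96.7 CPM at 20 Gy, 7 of 8 below every control and 1 near the highest (−0.58, adjusted p 0.167). In isotype allografts Foxm1 was 72.7, 62.6, 84.00 and 59.5 CPM at 0 Gy and 57.1, 84.8, 56.4 and 72.7 CPM at 20 Gy, with 2 irradiated tumours below every control and 1 above (−0.02, SE 0.35, adjusted p 0.991). With anti-PD-1 it was 51.3, 92.6, 55.5 and 98.6 CPM at 0 Gy and 45.3, 19.3, 30.9 and 78.3 CPM at 20 Gy, with 3 of 4 below every control (−0.75, SE 0.36, adjusted p 0.264). Gtse1, a microtubule-associated protein that restrains p53 in G2, was the least changed of these 8 genes in isotype primary tumours (−0.36, adjusted p 0.337) and in primary tumours with anti-PD-1 (−0.45). In isotype allografts its value was 0.05, while that of Foxm1 was nearer to 0, and Gtse1 was not called in any of these 3 settings. Its allograft value was −0.01 when scaled by total count alone. Cdc25b, another CDK1-activating phosphatase, passed in 1 setting, isotype primary tumours (−0.67, adjusted p 0.0242).

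The mitotic and centrosome kinases and their activators were called lower in 5 and 2 of 8 cases in primary tumours and in 0 and 1 in allografts. For the 0 in isotype allografts, 2 had an unadjusted p below 0.05 and DESeq2 called 1. Plk1, which drives centrosome maturation and spindle assembly, was 39.03, 59.03 and 89.8 CPM at 0 Gy and 11.8, 28.3 and 58.1 CPM at 20 Gy in isotype primary tumours. All 8 irradiated tumours were below the control median and 6 below every control (log2 fold change −1.04, SE 0.26, adjusted p 0.00746). With anti-PD-1 Plk1 was 44.6, 55.4 and 85.9 CPM at 0 Gy and 12.8, 30.6 and 62.3 CPM at 20 Gy, with 7 of 8 below every control (−0.89, adjusted p 0.0331). The allografts with isotype were at 55.8, 65.6, 65.7 and 45.3 CPM at 0 Gy and 39.1, 67.00, 46.04 and 51.8 CPM at 20 Gy, which overlapped (−0.16, adjusted p 0.877). With anti-PD-1 they were at 51.7, 68.7, 49.5 and 84.1 CPM at 0 Gy and 40.2, 11.2, 24.9 and 56.7 CPM at 20 Gy, where 3 of 4 irradiated tumours lay below every control and replicate 2 was the lowest (−0.90, SE 0.37, adjusted p 0.191).

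Hmmr, a spindle protein that works with TPX2 and Aurora A, was the kinase-group gene called in 3 settings. It was 30.1, 44.6 and 61.4 CPM at 0 Gy and 12.4, 20.7 and 35.6 CPM at 20 Gy in isotype primary tumours, with 7 of 8 below every control (log2 fold change −1.02, SE 0.24, adjusted p 0.00388). With anti-PD-1 it fell in primary tumours (−0.77, adjusted p 0.038) and had the smallest p of the 53 in allografts, where it was 38.8, 37.5, 32.9 and 41.99 CPM at 0 Gy and 21.9, 14.4, 20.3 and 25.8 CPM at 20 Gy without overlap (−0.85, SE 0.16, adjusted p 0.0121). Plk4, the kinase of centriole duplication, Aurka and Nek2, a centrosome kinase, passed in 1 setting, isotype primary tumours, with log2 fold changes of −0.78, −0.73 and −0.84. Tpx2, the checkpoint kinase gene Ttk and Dlgap5, which stabilises kinetochore fibres, did not pass in any setting, and Dlgap5 was the least changed of the group in isotype primary tumours (−0.52, adjusted p 0.17) and in allografts with either antibody (−0.07 and −0.55).

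Spindle checkpoint and mitotic exit genes were called lower in 4 of 8 cases in isotype primary tumours, in 0 with anti-PD-1 and in 0 and 1 in allografts. For the 0 with anti-PD-1, 4 had an unadjusted p below 0.05 and DESeq2 called 2, and for the 0 in isotype allografts these were 2 and 2. In isotype primary tumours these were Bub1b, Cdc20, Bub1 and Ube2c. Bub1b, which encodes the checkpoint protein BUBR1, was 57.04, 90.3 and 114.7 CPM at 0 Gy and 12.2, 34.7 and 111.8 CPM at 20 Gy there, with 7 of 8 irradiated tumours below every control and 1 near the highest of them (log2 fold change −1.06, SE 0.32, adjusted p 0.0247). Bub1b also had the largest value of all 53 genes in allografts with anti-PD-1, at 59.1, 89.6, 66.2 and 92.5 CPM at 0 Gy and 37.97, 14.3, 21.6 and 53.8 CPM at 20 Gy, which did not overlap but missed the threshold (−1.24, SE 0.34, adjusted p 0.0549). Cdc20 was 63.4, 108.7 and 153.1 CPM at 0 Gy and 26.5, 47.5 and 107.9 CPM at 20 Gy in isotype primary tumours, with 7 of 8 below every control (−1.0001, adjusted p 0.0171). Bub1, a checkpoint kinase, was the gene called in allografts with anti-PD-1 (−0.84, SE 0.19, adjusted p 0.026).

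The smallest values of this group were those of other genes. Bub3, the partner of BUB1 and BUBR1, was 93.3, 123.2 and 153.5 CPM at 0 Gy and 74.4, 95.2 and 143.3 CPM at 20 Gy in isotype primary tumours, with 4 of 8 irradiated tumours within the control range (−0.28, SE 0.15, adjusted p 0.232). Its isotype allografts were at 103.02, 123.6, 101.1 and 100.5 CPM at 0 Gy and 123.3, 100.2, 95.2 and 98.1 CPM at 20 Gy, with 3 irradiated tumours just below every control and 1 within their range (−0.02, SE 0.14, adjusted p 0.975). Espl1, which encodes separase, the protease that cuts cohesin, had the smallest value of the 53 in isotype primary tumours (−0.26, adjusted p 0.46), and Pttg1, which encodes its inhibitor securin, was not called in any setting (−0.46 and −0.37 in primary tumours). Mad2l1, the MAD2 gene, had log2 fold changes of −0.47, −0.45, −0.61 and −0.45 in the 4 settings, none called.

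The chromosomal passenger complex, Aurora B with its partners, was called whole in isotype primary tumours (4 of 4), and in 3, 0 and 1 of 4 cases in primary tumours with anti-PD-1 and the 2 allograft settings. For the 0 in isotype allografts, 1 had an unadjusted p below 0.05 and DESeq2 called 1. Aurkb, the kinase of the complex, was 35.8, 47.6 and 61.96 CPM at 0 Gy and 12.6, 27.5 and 57.2 CPM at 20 Gy with isotype, where 7 of 8 irradiated tumours lay below every control and 1 among the highest (log2 fold change −0.71, SE 0.23, adjusted p 0.0352). With anti-PD-1 Aurkb was 36.3, 44.2 and 73.9 CPM at 0 Gy and 13.4, 23.97 and 48.3 CPM at 20 Gy, with 6 of 8 below every control (−0.77, adjusted p 0.0336). Isotype allografts were at 41.7, 50.01, 49.98 and 37.8 CPM at 0 Gy and 31.3, 36.7, 32.8 and 33.8 CPM at 20 Gy. Those with anti-PD-1 were at 47.3, 50.6, 42.8 and 52.7 CPM at 0 Gy and 34.6, 14.1, 22.8 and 33.99 CPM at 20 Gy. Neither overlapped, and the second difference passed (−0.39, adjusted p 0.39, and −0.85, SE 0.23, adjusted p 0.0481). Birc5, which encodes survivin, fell by 0.80 and 0.87 on the log2 scale in the primary tumours (adjusted p 0.0154 and 0.0158) and Cdca8, the borealin gene, by 0.85 and 0.74 (adjusted p 0.00967 and 0.0367). Incenp, the scaffold, had the smallest changes of the complex (−0.61, adjusted p 0.0138, with isotype and −0.46, adjusted p 0.0903, with anti-PD-1).

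Centromere and kinetochore genes were called in 1 and 4 of 6 cases in primary tumours and in 2 and 1 in allografts. Nuf2, a subunit of the NDC80 complex that grips microtubules, had the smallest p of the 53 in isotype primary tumours, where it was 24.1, 48.1 and 77.6 CPM at 0 Gy and 12.4, 22.2 and 30.7 CPM at 20 Gy. All 8 irradiated tumours were below the control median and 5 below every control (log2 fold change −1.08, SE 0.23, adjusted p 0.00179). With anti-PD-1 Nuf2 was 28.3, 34.95 and 66.2 CPM at 0 Gy and 7.65, 18.1 and 32.5 CPM at 20 Gy (−0.94, adjusted p 0.011), again with 8 of 8 below the median. The isotype allografts were at 43.9, 49.6, 35.7 and 45.9 CPM at 0 Gy and 33.3, 25.9, 24.3 and 25.6 CPM at 20 Gy and did not overlap (−0.66, SE 0.16, adjusted p 0.0261). With anti-PD-1 they were at 46.3, 40.7, 37.9 and 48.5 CPM at 0 Gy and 27.7, 18.3, 28.04 and 28.4 CPM at 20 Gy and did not overlap either (−0.74, SE 0.16, adjusted p 0.0199).

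Its partners in the same complex, Ndc80 and Spc25, were called in primary tumours with anti-PD-1 (−0.77 and −0.77, adjusted p 0.0316 and 0.0373) and had −0.62 and −0.64 with isotype (adjusted p 0.0625 and 0.0608). Cenpa, the histone H3 variant that marks centromeres, had the largest value of the 53 genes in isotype allografts. These were at 120.03, 128.2, 61.3 and 143.9 CPM at 0 Gy and 70.4, 50.6, 39.4 and 39.9 CPM at 20 Gy, where control replicate 3 lay below irradiated replicate 1 (log2 fold change −1.16, SE 0.28, adjusted p 0.0278). In isotype primary tumours Cenpa was 42.01, 75.2 and 135.1 CPM at 0 Gy and 32.9, 48.8 and 72.1 CPM at 20 Gy, with 2 of 8 below every control (−0.64, adjusted p 0.0823), and with anti-PD-1 it fell (−0.85, adjusted p 0.0331). The large kinetochore genes Cenpe and Cenpf did not pass in any setting, with −0.72 and −0.75 in isotype primary tumours (SE 0.33 and 0.28).

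Kinesin motors were called in 7 and 5 of 8 cases in primary tumours and in 0 in either allograft setting, where edgeR gave 1 of the 8 with isotype and 8 with anti-PD-1 an unadjusted p below 0.05 and DESeq2 called 0 and 6. Kif23, a motor of the central spindle, had the largest change of the 8 in both primary settings. It was 35.2, 44.8 and 78.4 CPM at 0 Gy and 11.3, 18.99 and 46.5 CPM at 20 Gy with isotype, where 7 of 8 irradiated tumours lay below every control (log2 fold change −1.15, SE 0.26, adjusted p 0.00278). With anti-PD-1 Kif23 was 36.9, 49.01 and 87.6 CPM at 0 Gy and 11.6, 23.3 and 48.8 CPM at 20 Gy, with 8 of 8 below the control median (−1.07, adjusted p 0.00979). Kif15, a spindle motor that can stand in for KIF11, was 17.4, 28.9 and 37.98 CPM at 0 Gy and 6.65, 14.4 and 25.7 CPM at 20 Gy with isotype and 16.1, 20.97 and 37.5 CPM at 0 Gy and 7.86, 12.9 and 19.5 CPM at 20 Gy with anti-PD-1. In each case 8 of 8 irradiated tumours were below the control median (−0.996 and −0.86, SE 0.21 each, adjusted p 0.00183 and 0.0119). Kif11, the bipolar spindle motor, Kif20a and the chromokinesin Kif4 also fell in both primary settings (log2 fold changes of −0.97, −0.96 and −0.88 with isotype), and Kif2c, a microtubule depolymerase, and Kif18a with isotype (−0.84 and −0.77). Kif20b was not called in any (−0.70, adjusted p 0.072, with isotype).

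Of the cytokinesis genes, 4 and 3 of 5 were called in primary tumours and 0 and 1 in allografts, where for the 0 with isotype 1 had an unadjusted p below 0.05 and DESeq2 called 0. Iqgap3, a scaffold of the IQGAP family, had the smallest p of the 53 in primary tumours with anti-PD-1, where it was 22.1, 35.4 and 58.5 CPM at 0 Gy and 9.17, 17.1 and 24.5 CPM at 20 Gy. There 7 of 8 irradiated tumours lay below every control (log2 fold change −1.14, SE 0.21, adjusted p 0.00108). With isotype Iqgap3 was 26.9, 32.6 and 60.04 CPM at 0 Gy and 11.99, 19.9 and 27.5 CPM at 20 Gy, also 7 of 8 (−0.96, adjusted p 0.00193). Prc1, which bundles the microtubules of the central spindle, was 100.3, 151.8 and 170.9 CPM at 0 Gy and 32.1, 66.1 and 106.5 CPM at 20 Gy with isotype, with 7 of 8 below every control (log2 fold change −1.03, SE 0.24, adjusted p 0.00353). It fell with anti-PD-1 too (−0.89, adjusted p 0.018), while isotype allografts were at 88.5, 101.6, 84.8 and 73.3 CPM at 0 Gy and 70.7, 79.3, 71.9 and 78.8 CPM at 20 Gy (−0.19, SE 0.28, adjusted p 0.79), with 2 of 4 irradiated tumours below every control. Racgap1, the partner of KIF23 in centralspindlin, was 103.2, 119.8, 96.3 and 121.5 CPM at 0 Gy and 74.7, 31.8, 49.7 and 67.2 CPM at 20 Gy in allografts with anti-PD-1, without overlap (−0.96, SE 0.22, adjusted p 0.0246). It fell in primary tumours with anti-PD-1 (−0.99, adjusted p 0.0157) and had −0.69 with isotype (adjusted p 0.0656), where 7 of 8 irradiated tumours were below every control and replicate 8 was above all of them. Anln, the anillin gene of the contractile ring, and Ect2, the activator of RhoA, were called lower in 1 setting, isotype primary tumours (−1.07 and −0.94).

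Among the genes of chromosome structure, 5 and 1 of 6 were called in primary tumours and 0 and 1 in allografts, where for the 0 with isotype 1 had an unadjusted p below 0.05 and DESeq2 called 0. Mki67, the source of the Ki-67 marker, was called in both primary settings. It was 76.4, 166.00 and 247.5 CPM at 0 Gy and 45.8, 100.3 and 121.5 CPM at 20 Gy with isotype, where 2 of 8 irradiated tumours lay below every control (log2 fold change −0.80, SE 0.25, adjusted p 0.0315), and 79.9, 160.7 and 210.97 CPM at 0 Gy and 56.1, 77.5 and 163.1 CPM at 20 Gy with anti-PD-1, where 4 of 8 did (−0.89, adjusted p 0.0274). Isotype allografts were at 146.3, 166.4, 216.6 and 152.6 CPM at 0 Gy and 100.6, 129.6, 130.4 and 174.7 CPM at 20 Gy (−0.32, adjusted p 0.688). With anti-PD-1 they were at 115.9, 186.1, 168.7 and 279.6 CPM at 0 Gy and 78.2, 54.4, 75.7 and 170.1 CPM at 20 Gy, with irradiated replicate 4 apart from the other 3 (−0.96, SE 0.34, adjusted p 0.134). Top2a, the topoisomerase that untangles sister chromatids, was 139.4, 260.5 and 331.2 CPM at 0 Gy and 52.6, 137.02 and 279.01 CPM at 20 Gy in isotype primary tumours, with 4 of 8 below every control (log2 fold change −0.81, SE 0.24, adjusted p 0.0225). With anti-PD-1 Top2a was 157.3, 243.1 and 328.9 CPM at 0 Gy and 64.03, 148.7 and 234.6 CPM at 20 Gy (−0.62, adjusted p 0.108), again with 4 of 8.

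Top2a in isotype allografts was 247.2, 279.4, 267.4 and 207.1 CPM at 0 Gy and 192.1, 223.3, 214.6 and 250.5 CPM at 20 Gy, which overlapped (−0.16, adjusted p 0.847). With anti-PD-1 it was 239.99, 269.2, 240.1 and 369.7 CPM at 0 Gy and 191.2, 82.9, 122.5 and 286.5 CPM at 20 Gy, where irradiated replicate 4 lay above all but 1 control (−0.68, adjusted p 0.227). The condensin genes Ncaph, Ncapg and Smc2 fell in isotype primary tumours (−0.90, −0.81 and −0.74). Smc4 was the structural gene called in allografts with anti-PD-1, at 152.3, 152.8, 145.9 and 181.2 CPM at 0 Gy and 117.7, 104.5, 94.4 and 119.3 CPM at 20 Gy without overlap (−0.52, SE 0.12, adjusted p 0.0307), and in isotype primary tumours it had the smallest value of the group (−0.51, adjusted p 0.135).

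Between tumours of 1 group the 53 genes varied together. After the mean of each group was removed, the Pearson correlation of log2 CPM over the 48 tumours had a median of 0.79 over the 1378 pairs, from −0.13 (Cenpa with Mki67) to 0.97 (Tpx2 with Nek2). The points share library and scaling, so this is a description. Kif20a and Cdc20 had the highest median correlation with the other members (0.88 and 0.87) and Cenpa and Mki67 the lowest (0.44 and 0.52). The same quantity between the 53 genes and 60 other mitotic genes had a median of 0.73, with 45 genes of G1/S and DNA replication 0.68, with 16 muscle markers −0.36 and with 16 leukocyte markers −0.39.

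The level of the 53 genes also differed between single tumours of a group. The mean log2 CPM of the 53 genes had its lowest, median and highest values at 5.34, 5.92 and 6.20 in isotype primary tumours at 0 Gy and at 4.18, 5.01 and 5.90 at 20 Gy. With anti-PD-1 these were 5.35, 5.70 and 6.49 at 0 Gy and 3.76, 4.95 and 5.89 at 20 Gy. Replicate 3 of the irradiated isotype group was the lowest of its group for 50 of the 53 genes and replicate 8 the highest for 50. In the irradiated anti-PD-1 group replicate 4 was the lowest for 52 and replicate 5 the highest for 47, and replicate 6 was the highest for 47 in the 0 Gy group with anti-PD-1. The allografts had 5.53, 5.66 and 5.87 at 0 Gy and 5.18, 5.34 and 5.46 at 20 Gy with isotype, which did not overlap. With anti-PD-1 they had 5.54, 5.70 and 6.01 at 0 Gy and 4.23, 5.03 and 5.42 at 20 Gy, also without overlap, and replicate 2 was the lowest of the irradiated ones for 50 genes.

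**Figure D4:**
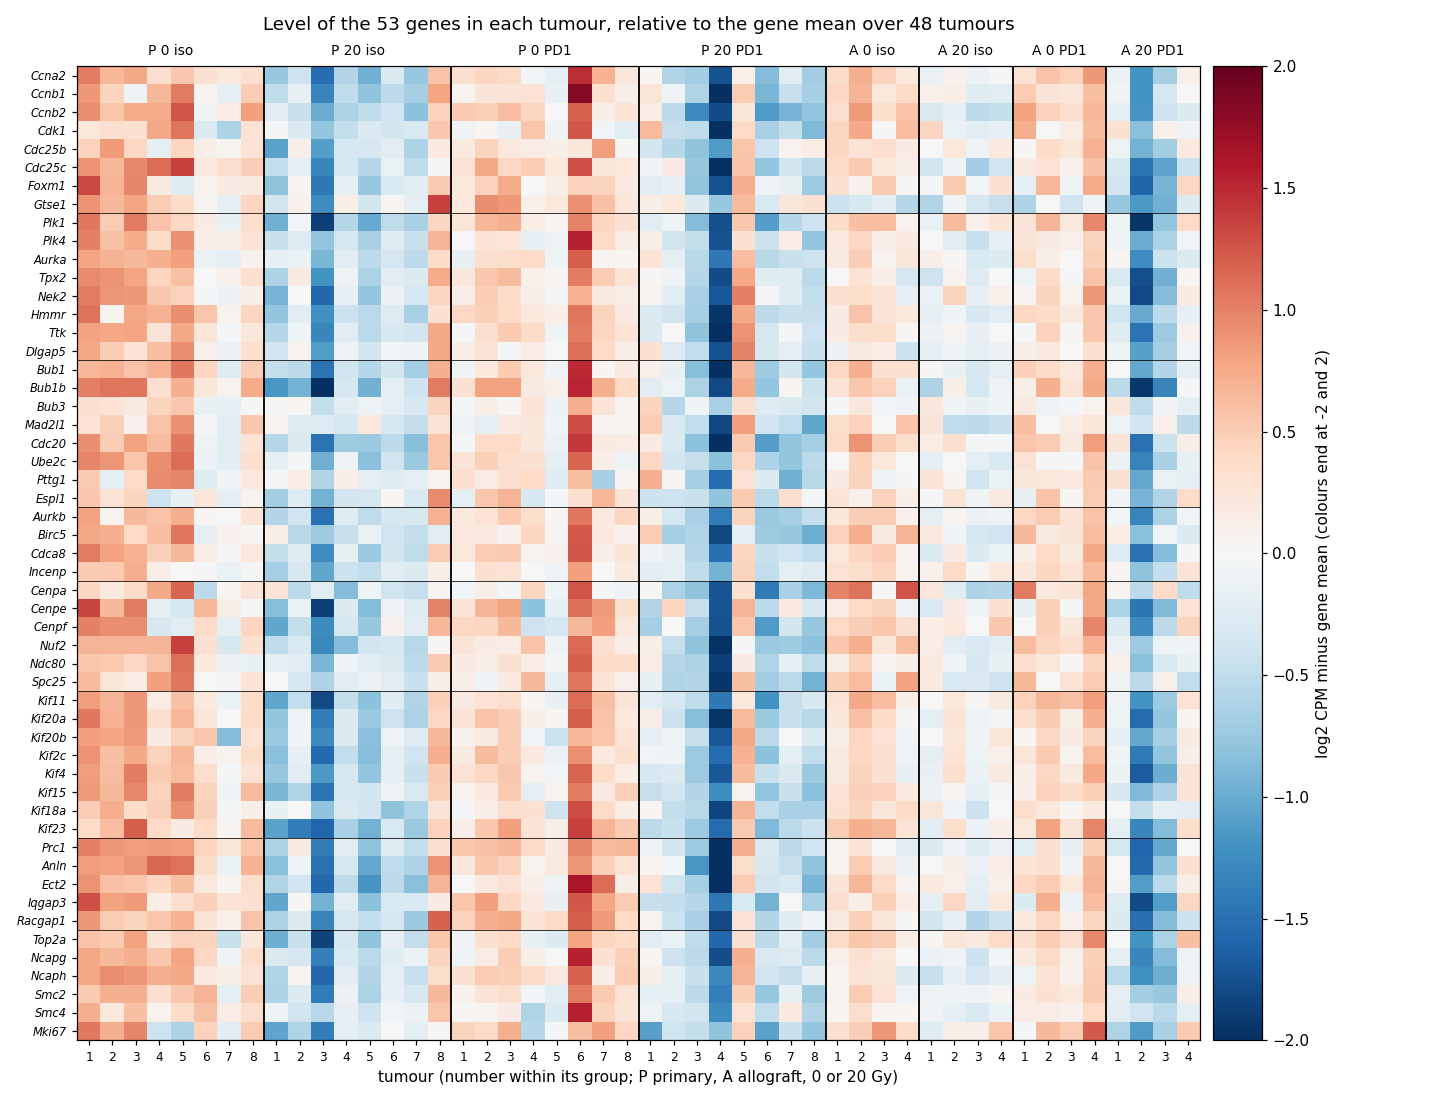
Log2 CPM of each of the 53 genes minus its mean over the 48 tumours (colour, ending at −2 and 2), with genes by role in rows and tumours by group in columns. Most genes of a tumour share 1 colour: replicate 4 of the irradiated primary tumours with anti-PD-1 was the lowest of its group for 52 genes, and replicate 6 of the unirradiated ones was the highest for 47.

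The question of anti-PD-1 alone was answered by 8 against 8 primary tumours and 4 against 4 allografts at each dose. edgeR called 0 of the 53 genes in any of these 4 comparisons (background 0.0% in each), 0 members had an unadjusted p below 0.05 in any, and DESeq2 called 0 members. At 0 Gy the median log2 fold change of anti-PD-1 against isotype was −0.11 in primary tumours (−0.24 to −0.041 on leaving out 1 tumour). In allografts it was 0.06, and −0.00022 without anti-PD-1 replicate 4. At 20 Gy the primary tumours gave no stable direction. Their median was −0.02 (27 of 53 genes below 0), −0.13 with muscle markers as a covariate (46 below 0), 0.15 without the muscle-rich tumours (11 below 0), and −0.19 to 0.15 on leaving out 1 tumour. In the irradiated allografts it was −0.37 (−0.60 to −0.16 on leaving out 1 tumour) and 51 of 53 genes were below 0, the smallest p being that of Kif20b (−0.47, SE 0.22, adjusted p 0.682). The dose-by-antibody interaction, which tests whether the antibody changed the effect of 20 Gy, called 0 members in either kind of tumour (background 0.0% in each), with 0 at an unadjusted p below 0.05 and 0 by DESeq2. Its median in primary tumours was 0.11 with 16 of 53 genes below 0, but −0.07 with muscle markers as a covariate (36 below 0) and 0.24 without the muscle-rich tumours (7 below 0). Without irradiated isotype replicate 3 or irradiated anti-PD-1 replicate 5 it was below 0 as well, and leaving out 1 tumour gave −0.089 to 0.25. In allografts the median was −0.46 (−0.67 to −0.28 on leaving out 1 tumour), and the smallest p was that of Gtse1 (−0.53, SE 0.30, adjusted p 0.864). The larger number of genes called in allografts with anti-PD-1 than with isotype is therefore not shown to be a difference between the antibodies.

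The combined treatment (20 Gy plus anti-PD-1, set against isotype alone) shares its controls with the isotype comparison. In primary tumours 35 of the 53 genes were called lower and 0 higher (background 4.98% and 8.78%), with a median of −0.83 and Ccnb2 at −1.29 (SE 0.25, adjusted p 0.000779) as the largest value. The groups did not overlap for Ccna2 and Iqgap3 (background 0.231%). Without the muscle-rich tumours 15 were called and the median was −0.63. In allografts 15 of the 53 genes were called lower and 0 higher (background 2.23% and 7.43%), with a median of −0.67, and 18 genes did not overlap (background 5.07%). In place of the 15, 6, 6 or 8 genes were called without isotype control replicate 1, 2 or 4, and 8, 9 or 41 without irradiated replicate 2, 3 or 4. The fit of all 48 tumours called 0, the fit of the 2 groups 3, no filter 6, Xist as a covariate 9 and DESeq2 26. Ccnb2 (−0.996, adjusted p 0.00539), Hmmr (−0.80, adjusted p 0.00689) and Nuf2 (−0.77, adjusted p 0.00712) had the lowest p there.

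Between untreated primary tumours and allografts, 2 of the 53 genes passed the test, while 42 had a log2 fold change above 0, with a median of 0.23 against 0.01 over all genes. So few calls in 8 against 4 tumours do not show that the other genes were alike. At 0 Gy with isotype Gtse1 and Prc1 were called higher in primary tumours, 2 of 53 where 6.03% of 17357 genes were, and 0 were called lower (3.99%). Gtse1 was 16.1, 25.1 and 33.97 CPM (lowest, median and highest) in the primary tumours and 13.6, 14.5, 15.6 and 12.2 CPM in the allografts. The groups did not overlap (background 4.73%), and the log2 fold change was 0.85 (SE 0.19, adjusted p 0.0145). Prc1 was 100.3, 151.8 and 170.9 CPM against 88.5, 101.6, 84.8 and 73.3 CPM, with the groups overlapping by 1 allograft (log2 fold change 0.68, SE 0.15, adjusted p 0.0121). The count was 1, 1 or 0 without allograft replicate 1, 2 or 4 and 4 without primary replicate 7. On leaving out 1 tumour the median was 0.16 to 0.27. Cenpf, Kif11, Mad2l1, Top2a and Ccnb1 were within 0.03 of 0 and changed sign under other settings.

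With anti-PD-1 at 0 Gy, Gtse1 alone was called higher in primary tumours (log2 fold change 0.81, SE 0.20, adjusted p 0.0277), 1 of 53 where 4.94% of genes were and 3.99% were lower, and without allograft replicate 1 or 3 it was not. The call was also lost with the identifier digit or muscle markers as a covariate and in the fit of all 48 tumours (0 called in each), while DESeq2 called 2. At 20 Gy 0 of 53 were called with isotype (4.76% of all genes in either direction), with 4 at an unadjusted p below 0.05 and 0 by DESeq2, and leaving out irradiated primary replicate 8 gave 4. With anti-PD-1 0 were called as well (0.00566% of all genes), with 1 at an unadjusted p below 0.05 and 1 by DESeq2. Whether 20 Gy acted differently in the kinds was tested by interaction over all 48 tumours. It called 0 of 53 genes with isotype (background 0.00517%), with anti-PD-1 (0.0%) and for the combination (0.0%), and DESeq2 called 0 in each. With isotype the median of that difference was −0.50 (−0.62 to −0.39 on leaving out 1 tumour). The other medians had no stable direction. With anti-PD-1 the median was 0.05, and it was below 0 in 6 of 24 fits that left out 1 tumour, with a range of −0.17 to 0.22. For the combination it was −0.15 with 45 of 53 genes below 0, but 0.02 with 23 below 0 without the muscle-rich tumours, 0.047 without irradiated allograft replicate 4, and −0.30 at the lowest. Only 1 gene, Prc1 with isotype, had an unadjusted p below 0.05 (−0.83, SE 0.39, adjusted p 0.495). A difference between the kinds in the effect of 20 Gy is therefore not shown, whatever the counts of calls.

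Other cell cycle genes were read from 3 lists of non-members. Of all genes tested, 6.64% and 1.86% were called lower in primary tumours with isotype and anti-PD-1. In allografts these shares were 0.744% and 0.828%. Of 60 other G2/M and mitosis genes, 26 and 17 were called lower in primary tumours with isotype and anti-PD-1 and 5 and 12 in allografts, with medians of −0.67, −0.65, −0.38 and −0.66. Depdc1b, a mitotic gene, fell by 1.36 on the log2 scale in isotype primary tumours (SE 0.25, adjusted p 0.000431). Of 45 genes of G1/S and DNA replication, 5 and 4 were called in primary tumours and 0 in either allograft setting (edgeR, with 2 and 9 at an unadjusted p below 0.05), with medians of −0.39, −0.47, −0.06 and −0.37. Rrm1, a subunit of ribonucleotide reductase, had −0.79 in isotype primary tumours (SE 0.19, adjusted p 0.00637). Of 24 subunits of the DREAM and MMB complexes and of the anaphase-promoting complex, 7 and 1 were called lower in primary tumours and 0 and 1 in allografts, for example Anapc2 (−0.40, SE 0.08, adjusted p 0.00148). In these 3 lists 0 genes were called higher in the 4 settings. Each median of the 53 genes was below that of the G1/S list in the same setting, a difference that was not tested.

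Some markers of other cells differed between the dose groups. The 16 leukocyte markers had 5 and 3 genes called higher after 20 Gy in primary tumours and 5 and 4 in allografts. Of all genes tested, 7.85% and 6.06% were called higher in the primary settings and 4.4% and 3.13% in the allograft settings. The summed level of the leukocyte markers ran from 702 to 1067 CPM at 0 Gy and 917 to 1940 CPM at 20 Gy in isotype primary tumours. In those with anti-PD-1 it was 623 to 1155 and 725 to 2723 CPM. Allografts had 602 to 1283 and 1532 to 1930 CPM with isotype and 569 to 1973 and 1723 to 2567 CPM with anti-PD-1. Among the defining markers Ptprc, the pan-leukocyte gene, was at 59.9 to 620 CPM. The 16 muscle markers had a median log2 fold change of 2.21 and 2.78 in primary tumours and −0.56 and 0.19 in allografts, with 0 called by edgeR (11 at an unadjusted p below 0.05 in primary tumours with anti-PD-1 and 0 in the other 3 settings). They summed to 78.8 to 7383 CPM at 0 Gy and 353 to 54288 CPM at 20 Gy in isotype primary tumours, and to 96.1 to 9219 and 18.3 to 97840 CPM with anti-PD-1. With muscle markers as a covariate, 34 of the 53 genes were called lower in isotype primary tumours and 35 with anti-PD-1. The part of the leukocyte markers in the lower levels of the 53 genes was not tested. The median sum of the muscle markers was 2146 CPM at 0 Gy and 1808 CPM at 20 Gy in isotype primary tumours, and 1705 and 2349 CPM in those with anti-PD-1. Vim, 1 of 8 mesenchymal markers, was called lower in each primary setting. The median sum of the 8 was 28779 CPM at 0 Gy and 17385 CPM at 20 Gy in isotype primary tumours. It was 31116 and 19861 CPM in primary tumours with anti-PD-1. Allografts had 13833 and 14102 CPM with isotype and 17631 and 8614 CPM with anti-PD-1. The dose groups overlapped in each setting. Of 6 endothelial markers Kdr rose in isotype allografts (log2 fold change 1.22, adjusted p 0.0204), and 6 liver markers summed to at most 452 CPM.

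**Figure D5:**
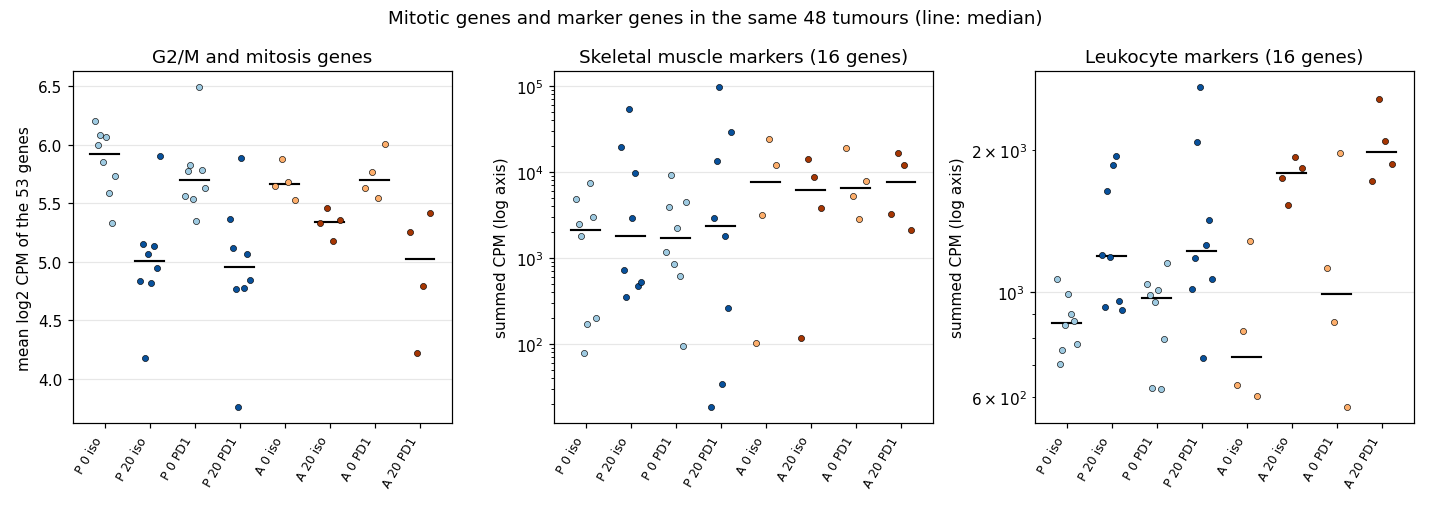
Mean log2 CPM of the 53 genes (left, linear axis) and summed CPM of 16 skeletal muscle and 16 leukocyte markers (log axes) in each tumour, by group, with lines at the medians. The irradiated primary tumour with the most muscle RNA (97840 CPM) also had the lowest mean of the 53 genes (3.76). Replicate 4 of the irradiated primary tumours with isotype (54288 CPM) had 5.07, above its group median of 5.01. Replicate 8 of those with anti-PD-1 (29163 CPM) had 4.85, below its group median of 4.95. The leukocyte sums of irradiated allografts with isotype (1532 to 1930 CPM) lie above those of their controls.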

How the data were processed

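Poly(A) RNA of 48 tumours was sequenced from stranded libraries, and the authors deposited raw counts per Ensembl gene. The submitters' processing notes name Trimmomatic 0.36, STAR (version given as 5.5.4b), HTSeq and the mm10 build. The annotation and the strand setting are not given in the sources used here. Library totals were 31.8 to 54.0 M counts. Gene names and coordinates came from GENCODE M21, which matched 36796 of 36854 identifiers, and promoters from RefSeq GRCm38.p6.

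Counts were scaled by TMM and tested with edgeR 4.0.16 (quasi-likelihood, R 4.3.3, limma 3.58.1) after filterByExpr, with Benjamini-Hochberg adjustment across every gene of the fit and a threshold of 0.05. Each tumour kind was fitted over its 4 groups (17770 genes for primary tumours, 17746 for allografts), the kinds were compared over the 2 groups concerned, and their interactions over all 48 tumours. Log2 CPM used a prior count of 2. Tables and figures used Python 3.11.15, pandas 2.3.3, numpy 2.4.6 and matplotlib 3.10.9. The fits were tested on simulated data for 20 Gy against 0 Gy with isotype. At a simulated 1.5-fold change, 24% of 50 changed genes were recovered in primary tumours and 6% in allografts. At a 2-fold change these were 70% and 42%. Alternatives were other scalings, no filter, DESeq2 1.42.0, other samples in the fit, covariates, and leaving out each tumour.

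The 53 genes and the other lists were chosen with earlier results of these data known. Any of the 53 could be named. Values in every group were due for 7 panel genes, and in each dose comparison and the untreated comparison of the kinds for the 6 genes with the smallest p, the 3 nearest 0 and the extremes of each role. Other members named, such as Cdc20, Kif20a and Aurka, and marker genes named for the tumour check were chosen with their values seen. Of other genes the rule took Cdkn1a and at most 3 of each cell cycle list. Replicate numbers follow the order of the records and only name a tumour. Proteins, DNA data and liver controls were not used here.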

Additional observations from a re-analysis of the deposited data

Results flagged for a closer look

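In groups of 4 to 10 tumours, values that lay apart from the rest of their group by Dixon's criterion were collected. Chance gives about 1 in 20 groups. Over the 53 genes and 8 groups, 71 of 424 tests (16.7%) had such a tumour, and since the genes vary together these tests are not independent. Of the 71, 30 were replicate 6 of the primary tumours at 0 Gy with anti-PD-1, 23 were replicate 8 of those at 20 Gy with isotype, and 7 were replicate 5 of those at 20 Gy with anti-PD-1.

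Replicate 6 at 0 Gy with anti-PD-1 stood above its group in Ccnb1 (226.6 CPM), Cdk1 (199.2 CPM) and Aurkb (73.9 CPM), and in the mean log2 CPM of the 53 genes (6.49). Replicate 8 at 20 Gy with isotype stood above its group in Ccnb1 (108.9 CPM), Cdk1 (123.4 CPM) and Aurkb (57.2 CPM). Replicate 5 at 20 Gy with anti-PD-1 stood above its group in Foxm1 (96.7 CPM) and Mki67 (163.1 CPM). Among allografts, replicate 1 at 20 Gy with isotype stood above its group in Cdk1 (114.1 CPM).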

How the results depend on the processing

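No paired analysis was possible because the labels give no replicate numbers that are shared between groups. In isotype primary tumours the 35 calls stayed within 29 to 43 under 9 alternatives, which did not include Xist as a covariate. With anti-PD-1 the 21 calls became 35 with muscle markers as a covariate, 34 in a fit of all 48 tumours, 12 in a fit of the 2 groups and 6 without the muscle-rich tumours, an alternative chosen after seeing the data. The combined treatment in primary tumours gave 15 in place of 35 without them. For isotype allografts (3 calls) DESeq2 gave 9, the identifier digit 0, Xist 1, all 48 tumours 0 and the 2 groups 7. For allografts with anti-PD-1 (9) DESeq2 gave 29, all 48 tumours 0 and the 2 groups 0. For the combination in allografts (15) DESeq2 gave 26, no filter 6, Xist 9, all 48 tumours 0 and the 2 groups 3. Between the kinds, the 2 calls at 0 Gy with isotype became 1 with all 48 tumours, the 1 call with anti-PD-1 became 2 with DESeq2 and 0 with the identifier digit, muscle markers or all 48 tumours, and the 0 calls at 20 Gy with anti-PD-1 became 1 with DESeq2. The cause was not tested.

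Leaving out 1 tumour gave 21 to 44 calls in isotype primary tumours, 9 to 42 with anti-PD-1 and 25 to 47 for the combination. In allografts it gave 0 to 6, 2 to 40 and 6 to 41. Between the untreated kinds it gave 0 to 4, between the unirradiated kinds given anti-PD-1 0 to 1, and between the irradiated kinds given isotype 0 to 4.

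Of 2533 refits of single-gene values, 2273 (89.7%) kept direction and side of the threshold, 5.41% lost a call, 2.53% gained one, and 59 (2.33%) reversed, 46 of them on leaving out 1 tumour. In isotype allografts Gtse1 became −0.0067 by total count. Between the untreated kinds Mki67 became 0.049, Ccnb1 −0.070 and Top2a 0.011 with muscle markers, and Ccnb1 −0.017, Cenpf −0.028 and Kif11 −0.030 by total count. Cenpf was −0.0056 and Kif11 −0.0067 with DESeq2 size factors and with DESeq2, and Mad2l1 was 0.0050 without a filter and 0.0071 with all 48 tumours. On leaving out 1 tumour, isotype allografts gave Foxm1 −0.14 to 0.092, Bub3 −0.090 to 0.046, Gtse1 −0.055 to 0.14, Anln −0.21 to 0.0034 and Kif20b −0.15 to 0.0027, and the untreated kinds Mki67 −0.22 to 0.027, Ccnb1 −0.075 to 0.12, Plk1 −0.0043 to 0.16, Top2a −0.099 to 0.059, Cenpf −0.094 to 0.090, Kif11 −0.083 to 0.11, Mad2l1 −0.12 to 0.082 and Kif23 −0.18 to 0.031. With 4 allografts a group, counts of calls in allografts rest on few tumours.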
